A study of Bos taurus with 134 samples.

Results

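The bovine oocyte methylome was read here in its longest windows, the stretches of an autosome in which a window holding a set number of CpG sites had to reach over at least 150000 bp. In the table of methylation windows, every row of chromosomes 1 to 29 whose length from first to last base was at least 150000 bp was taken. This gave 4232 long windows of 41322 windows in all and of 39778 on autosomes. They were set beside 29849 autosomal windows of at least 5000 bp and under 150000 bp, called shorter windows below, while 5697 autosomal windows were under 5000 bp. Chromosome X held another 334 long windows among its 1537 windows and was kept apart.

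Each library is 1 wild-type oocyte at metaphase of the second meiotic division (MII), read by single-cell bisulfite sequencing (scBS-seq). Both groups were collected, at different times, from 4 Holstein heifers of 15 to 18 months. In vitro matured (IVM) oocytes, n = 26, were taken immature from follicles of heifers that had received GnRH and were then matured for 22 h in culture. In vivo matured (IVO) oocytes, n = 20, were aspirated from larger follicles after superovulation with 180 mg of follicle-stimulating hormone, prostaglandin and GnRH. They were also selected for expansion of the surrounding cumulus cells. Hormone treatment, follicle size, this selection and place of maturation therefore cannot be told apart. The labels do not name the heifer of an oocyte, so each group counts as 1 sample. An SD over oocytes describes their scatter only, and the groups were not tested against each other.

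Mammalian oocytes lay down DNA methylation during growth, after the germ line has lost it, through de novo methyltransferases whose expression differs between species. In oocytes this methylation lies mostly over transcribed gene bodies, and the stretches between genes tend to be less methylated. CpG sites are rare and unevenly spaced in mammalian DNA, dense at CpG islands and sparse in large intergenic stretches and gene deserts.

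A window's value is the percent of CpG calls in it that were methylated in 1 oocyte. The number of calls behind a value is unknown, so no interval was attached to any value. The name of the table gives 20 CpGs a window and the description of the tiling gives 100. For a long window of median length, these numbers would place 1 counted CpG every 10.5 kb or every 2.10 kb. Both spacings are wide for a mammalian genome, so at either number a window would count only some of the CpGs it spans. CpG content was not measured here, and the windows are therefore called long, not CpG-poor.

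The long windows had a median length of 210164 bp, from 150002 to 1131106 bp, and the central 80% ran from 159876 to 344679 bp. They were 10.6% of autosomal windows but covered 998 Mb, or 39.8% of the 2511 Mb between the first and the last window of the autosomes. Shorter windows covered 54.8%. Every long window had a value in at least 5 oocytes of each group, against 27612 of the 29849 shorter windows, and only these entered comparisons of the groups. A long window was measured in a mean of 22.4 IVM and 15.9 IVO oocytes, and a shorter one in 16.3 and 11.2. Of the long windows, 286 had a value in all 46 oocytes.

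Libraries differed widely in how many long windows they measured, from 1466 in IVO oocyte 30 to 4210 in IVO oocyte 28. Of the 46 oocytes, 10 had values in fewer than 15000 windows of any length, 5 in each group. These 10 oocytes measured 1466 to 2791 long windows and had mean levels of 67.6% to 80.3% over them. The other 36 measured 2617 to 4210 and had mean levels of 56.7% to 71.1%. In 9 of the 10 sparse oocytes the median long window stood at 100%, which occurred in none of the others. Mean levels, median SDs over oocytes and mean differences over all long windows are given below with and without these 10 oocytes. Values by chromosome, those of named windows and all others not marked otherwise rest on all 46.

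Long windows were methylated at intermediate to high levels in both groups, and a long window of low methylation was rare. Averaged over windows, the level was 62.1% in IVM and 64.8% in IVO oocytes, against 56.5% and 59.1% in shorter windows. Without the sparse oocytes it was 60.7% and 63.8% in long and 55.9% and 58.6% in shorter windows. Taking the mean of both group means as a window's level, its median was 62.7% in long windows, with the central 80% of windows between 40.9% and 87.1%. In shorter windows the median was 57.6% and the central 80% ran from 25.9% to 90.7%.

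The low end of the distribution was nearly empty. Only 2 of 4232 long windows, 0.0473%, had a level under 20%, against 1417 shorter windows, or 5.13%. With only the 21 IVM and 15 IVO oocytes that had at least 15000 windows, 1 long window was under 20%. Another 373 long windows, 8.81%, lay from 20% to under 40%, where shorter windows had 22.6%. Without the sparse oocytes these were 479 long windows, or 11.3%, and 23.5% of shorter windows. The most filled class was 40% to under 60%, with 1544 long windows or 36.5%, followed by 1370 windows or 32.4% from 60% to under 80%. At 80% or more stood 943 long windows, 22.3%, close to the 23.2% of shorter windows. Only the extreme top was thinner, with 5.53% of long and 11.0% of shorter windows at 90% or more. From 40% up to 90%, each class of 10 percentage points held between 16.2% and 18.6% of the long windows, so the distribution had a flat top and no single mode.

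The scarcity of low levels went with length. Among windows of 5 kb to under 20 kb, 11.8% had a level under 20%, among those of 20 kb to under 50 kb 4.80%, and among those of 50 kb to under 100 kb 1.23%. From 100 kb to under 140 kb it was 0.135%, and among the 2393 windows of 200 kb or more there was none. The tenth percentile of the level was 18.5% at 5 kb to under 20 kb and 44.4% in the 54 windows of 500 kb or more. The ninetieth percentile was 93.4% and 83.3%, so levels lay closer together in the longest windows, from both sides. The mean over IVM oocytes was 53.4% in the shortest of these classes, 63.3% at 160 kb to under 200 kb and 57.7% at 500 kb or more. At 5 kb to under 20 kb a window was read in 12.2 IVM and 8.41 IVO oocytes on average, and at 500 kb or more in 24.3 and 17.5. Means over fewer oocytes scatter more. The part of this in the scarcity of low levels and the narrower range was not tested.

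Single oocytes gave the same picture. An oocyte's mean over its long windows was 63.5% ± 6.71 over 26 IVM oocytes and 66.2% ± 4.65 over 20 IVO oocytes (mean ± SD). In IVM oocytes the lowest was 56.7%, the median 61.0% and the highest 79.1%, and in IVO oocytes they were 60.2%, 65.2% and 80.3%. The ranges overlapped over most of their length, with 9 of 26 IVM oocytes below the lowest IVO oocyte. Of the 26 IVM oocytes, 20 lay below the IVO median.

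In each of the 46 oocytes the mean over long windows was above the mean over shorter windows. The excess was 4.09 percentage points ± 1.05 (SD, n = 26) in IVM oocytes, from 2.14 to 5.79. In IVO oocytes it was 4.13 ± 1.02 (SD, n = 20), from 1.71 to 6.11. Without the sparse oocytes it was 4.22 in IVM and 4.29 in IVO oocytes. Its size depended on the shorter windows set beside the long ones, on their weights and on the summary. Keeping windows with 10 or more IVM and 10 or more IVO oocytes, it was 2.67 in IVM and 2.63 in IVO oocytes. With each window weighted by its length it was 2.24 and 2.14. The median over an oocyte's windows in place of the mean gave 5.46 in IVM and 2.63 in IVO oocytes. Within 1 oocyte, values also varied less among long than among shorter windows, with a mean SD over windows of 31.6 against 37.3 percentage points in IVM oocytes and 33.2 against 38.1 in IVO oocytes.

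Both chromosome X and the autosomes had long windows of like level. The 334 long windows of chromosome X averaged 60.8% in IVM and 63.2% in IVO oocytes, with a mean difference of -2.44 percentage points, against -2.71 in the autosomal long windows.

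The highest levels among long windows read in 10 or more IVM and 10 or more IVO oocytes were near full methylation. The window chr10:14388694-14550598 (build UMD3.1.1, as for all positions here) had a lowest value of 50.0%, a median of 100% and a highest of 100% over 19 IVM oocytes, and 85.7%, 100% and 100% over 14 IVO oocytes. Of these, 16 IVM and 12 IVO oocytes were at 100%. The window chr16:40408984-40589511 stood at 100% in 14 of 15 IVO oocytes and 19 of 23 IVM oocytes, and 1 IVM oocyte read 0%. It lay in a stretch of high windows, with levels of 93.0% in the window before it and 80.1% in the one after. The other windows of highest level were chr14:36816569-36993905 at 96.6%, chr11:71561856-71712421 at 96.4% and chr17:6833714-7041191 at 96.2%. No value under 66.7% occurred in these 3 windows in either group.

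The lowest levels lay in windows whose neighbours were not low. The lowest long window, chr9:71455371-71647953, spans 192583 bp and had a mean of 13.9% ± 12.0 over 18 IVM oocytes and 13.3% ± 16.0 over 15 IVO oocytes (mean ± SD). Its values ran from 0% through a median of 14.8% to 33.3% in IVM oocytes and from 0% through 0% to 42.9% in IVO oocytes. The groups overlapped throughout, and the windows before and after it stood at 65.8% and 43.9%. The only other long window under 20% was chr12:27726697-27885467, with 18.3% ± 17.7 over 21 IVM oocytes and 21.0% ± 18.7 over 14 IVO oocytes (mean ± SD). Its neighbours stood at 59.1% and 38.7%.

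Next in order came chr16:6280151-6510637, chr21:343984-517980 and chr1:102949081-103193298, with levels of 21.0%, 21.1% and 22.9%. In the first of these, 11 of 26 IVM and 12 of 20 IVO oocytes read 0%, while the highest values were 60.0% and 75.0%. The window on chromosome 21 lies at 0.596% of the span of that chromosome, among its first windows. Each of these 3 had neighbours of 39.4% to 57.4%.

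The 5 longest windows had intermediate levels, unlike the top of the level list. The longest, chr7:6698779-7829884, reaches over 1131106 bp and lay between windows of only 9253 and 4186 bp. In it the values ran from 0% through a median of 72.2% to 100% over 25 IVM oocytes and from 0% through 50.0% to 100% over 13 IVO oocytes. Its SD of 37.2 percentage points in IVM and 37.7 in IVO oocytes was above the median of long windows, and it was measured in fewer IVO oocytes than the other 4.

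The other 4 each followed another long window and varied less. The window chr12:42601595-43341567, of 739973 bp, had 38.8% ± 20.3 over 25 IVM oocytes and 49.7% ± 27.3 over 15 IVO oocytes (mean ± SD). In chr16:10240418-10977500, of 737083 bp, the means were 54.2% ± 18.3 (SD, n = 25) and 53.4% ± 21.8 (SD, n = 19), and the window that follows it stood at 89.8%. The means in chr22:24956167-25630060, of 673894 bp, were 46.6% ± 19.7 (SD, n = 26) and 58.8% ± 20.5 (SD, n = 19), with neighbours at 30.7% and 84.1%. Thus adjoining long windows could differ by more than the SD over oocytes. In chr11:52256968-52906195, of 649228 bp, the means were 48.3% ± 23.7 (SD, n = 26) and 57.0% ± 26.6 (SD, n = 20).

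Oocytes of 1 group spread widely within a long window, but less than in shorter windows. The median SD over oocytes was 26.8 percentage points in IVM and 28.9 in IVO oocytes, against 30.3 and 31.9 in shorter windows. With only the oocytes that had at least 15000 windows, the medians were 24.7 and 27.1 in long windows and 29.2 and 30.9 in shorter windows. By the interquartile range over oocytes in place of the SD, long and shorter windows were nearly level, with 33.2 and 34.0 in IVM oocytes and 35.5 and 35.0 in IVO oocytes.

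Within classes of equal level the narrower spread was seen at intermediate levels. Among windows of 20% to under 80%, the median SD was 28.2 in IVM and 30.3 in IVO oocytes for long windows and 32.8 and 34.7 for shorter windows. At 80% or more the medians were 19.5 and 18.3 for long and 18.5 and 16.6 for shorter windows. Without the sparse oocytes they were 26.1 and 28.5 against 31.8 and 33.8 at 20% to under 80%, and 17.0 and 16.6 against 17.1 and 15.4 at 80% or more. Under 20% there were 2 long windows, too few for a comparison. Among the long windows the spread was largest at the shortest length. It was 28.9 in IVM and 30.2 in IVO oocytes at 150 kb to under 160 kb, 24.9 and 27.4 at 300 kb to under 400 kb, 23.4 and 27.5 at 400 kb to under 500 kb, and 24.0 and 26.0 in the 54 windows of 500 kb or more. In these 4 classes a window was read in 21.8, 23.3, 23.7 and 24.3 IVM oocytes on average, and in 15.2, 16.8, 17.1 and 17.5 IVO oocytes. The share of this number in the spread was not tested.

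Single values at exactly 0% or 100% were less common in long windows. Of 94960 values in IVM oocytes, 5.99% were 0% and 25.1% were 100%, and of 67298 values in IVO oocytes 7.69% and 31.5%. In shorter windows the shares were 12.3% and 30.2% in IVM and 13.4% and 35.5% in IVO oocytes. The share at 0% or 100% over long windows ran from 13.5% in IVM oocyte 8 through a median of 25.6% to 80.9% in IVM oocyte 41. In IVO oocytes it ran from 13.6% in oocyte 27 through 40.4% to 84.0% in oocyte 30. Oocytes 41 and 30 were also among the 10 that measured few windows. Without those 10, 5.18% of long-window values were 0% and 20.8% were 100% in IVM oocytes, and 6.36% and 27.0% in IVO oocytes, and the highest shares at 0% or 100% were 54.7% and 58.2%. In shorter windows 12.0% and 28.0% of values in IVM and 12.9% and 33.1% in IVO oocytes then stood at these ends. With few calls a value falls at 0% or 100% more readily, and as calls per value are unknown, this part of the spread could not be separated.

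A strong split between oocytes marked the long windows of largest SD, ranked by the mean of both group SDs, among those of 20% to under 80%. In chr11:43447940-43612882 the IVO values ran from 0% through a median of 100% to 100%, with 4 of 13 oocytes at 0%, 7 at 100% and 1 from 20% to under 80%. The IVM values ran from 0% through 19.4% to 100%, with 5 of 22 oocytes at 0% and 7 at 100%. Both groups thus held oocytes at either end. The IVM values also differed by library number, with a mean of 23.1% over 14 oocytes numbered 1 to 18 and of 76.6% over 8 numbered 39 to 46, so that IVM minus IVO was -33.3 and 20.1. In chr4:83774754-83933533, 6 of 19 IVM oocytes were at 0% and 7 at 100%, and in chr15:7905250-8092580, 5 of 16 IVO oocytes were at 0% and 6 at 100%.

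The windows of smallest SD, ranked the same way in the same class, held no oocyte at either end of the scale. In chr4:91768331-91958145 the means were 76.2% ± 13.4 over 26 IVM oocytes and 78.2% ± 10.1 over 20 IVO oocytes (mean ± SD). The windows on both its sides were higher, at 91.8% and 93.1%. In chr20:66204832-66365520 the means were 39.4% ± 12.3 (SD, n = 25) and 41.2% ± 14.1 (SD, n = 19). By the mean of both SDs this was the smallest spread around an intermediate level below 50%. In chr8:38026473-38247058 they were 78.8% ± 15.8 (SD, n = 26) and 79.3% ± 10.6 (SD, n = 20).

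Pairs of oocytes ranged from hardly alike to moderately alike over the long windows they shared. The median Pearson correlation across windows was 0.307 among pairs of IVM oocytes, 0.221 among pairs of IVO oocytes and 0.250 between an IVM and an IVO oocyte. Single pairs ran from 0.0274 to 0.452, from 0.0499 to 0.478 and from 0.0369 to 0.466. In shorter windows it was 0.349, 0.292 and 0.316. Without the sparse oocytes these medians were 0.360, 0.262 and 0.300 in long windows and 0.393, 0.320 and 0.342 in shorter ones. Single pairs over long windows then ran from 0.173 to 0.452, from 0.150 to 0.478 and from 0.151 to 0.466. IVO libraries measured 79.5% of long windows on average and IVM libraries 86.3%. The level had an SD over windows of 17.3 percentage points in long and 23.9 in shorter windows. The part of either in these correlations was not tested. Group means were far more alike, with r = 0.860 across the 4232 long windows between the IVM mean and the IVO mean, and 0.860 across the 27612 shorter windows. These values describe windows of the same genome and libraries, which are not independent replicates.

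Long windows were spread unevenly over the autosomes. Chromosome 1 held the most, 341, and chromosome 25 the fewest, 28. Chromosome 6 was the richest for its size, with 23.9 long windows per 10 Mb and 61.6% of its span inside them. Chromosome 12 followed by share, with 58.1% of its span, then chromosome 4 with 53.3%, chromosome 1 with 53.0% and chromosome 9 with 51.1%. Over all autosomes there were 16.9 long windows per 10 Mb.

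At the other end stood chromosomes 19, 25 and 18, which are known as gene-rich in cattle. They had 5.62, 6.53 and 7.12 long windows per 10 Mb, and long windows took 12.4%, 12.9% and 15.3% of their spans. Chromosome 13 came next with 9.14 per 10 Mb and 18.8%. Chromosomes 1 to 6 together held 39.2% of all long windows on 31.0% of the autosomal span.

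Along a chromosome, long windows thinned out toward the distal end. Bovine autosomes are acrocentric, with the centromere at one end, taken by convention as the start. When each span was cut into 10 equal parts, long windows took 42.8% of the bases of the part at the start, between 44.1% and 47.7% of parts 2 to 7, and 41.1% of part 8. They took 25.2% of part 9 and 10.5% of part 10, which held 125 of the 4232. The level of long windows was lower in the first and the last part, 57.2% and 57.4%, and lay between 63.2% and 66.9% in the 8 parts between. In the first part alone it was below the level of shorter windows, which was 59.9% there.

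Long windows often lay side by side. The 4232 windows formed 2212 uninterrupted stretches, of which 1341 were single windows and 871 held 2 or more. These 871 stretches took in 2891 windows, 68.3% of all. There were 165 stretches of 5 or more windows. The longest, chr1:13549375-18187696, had 16 long windows in a row over 4.64 Mb, with a mean level of 51.3% and single windows from 30.9% to 89.0%. The next 2, chr14:51315604-56647552 and chr28:19885125-24304144, had 14 windows each over 5.33 and 4.42 Mb and were higher, at 71.4% and 72.7%. These stretches were picked for length after the values were seen.

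Neighbouring long windows had more alike levels than long windows of the same chromosome in general. The median absolute difference in level was 10.6 percentage points over 2020 pairs of adjacent long windows, and 16.4 over all 416741 pairs of long windows on a common chromosome. Over 21007 adjacent pairs of shorter windows it was 14.3. The correlation of level between adjacent long windows was 0.571, and between adjacent shorter windows 0.513. The 943 long windows at 80% or more fell into 731 stretches, of which 48 had 3 or more windows. A stretch was taken to end at any window under 150 kb, whatever its level, which by itself keeps stretches short. Those with the most windows, 5 each, were chr12:66292799-67853271 at 84.7%, chr7:36798657-38337579 at 86.5% and chr8:14943325-16191896 at 91.0%. These stretches too were chosen after the values were seen.

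Chromosomes differed in the level of their long windows. The highest mean level was 73.3% on chromosome 7, where 92 of 208 long windows, 44.2%, stood at 80% or more. Chromosome 28 followed with 71.1% and 41.4% of its 70 long windows at 80% or more. The lowest was 55.0% on chromosome 23, while chromosome 19 had the smallest share at 80% or more, 2 of 36. On 28 of 29 autosomes long windows had a higher mean level than shorter windows. The gap was widest on chromosomes 7, 27 and 21, at 11.2, 11.0 and 10.4 percentage points, and on chromosome 25 it was -0.0785.

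IVM oocytes had slightly lower methylation of long windows than IVO oocytes, by about as much as in shorter windows. The difference of oocyte means was -2.65 percentage points in long windows, less than the SD over oocytes of either group, and -2.61 in shorter windows. The first minus the second was -0.0315, against an SD over oocytes of 1.02 for the excess of long over shorter windows in IVO oocytes. IVM oocytes came in 2 blocks of library numbers, 1 to 18 and 39 to 46, and all IVO oocytes were numbered 19 to 38. The difference in long windows was -2.49 with the 18 oocytes of the first block and -2.99 with the 8 oocytes of the second. Without the 10 oocytes that had fewer than 15000 windows it was -3.19, with means of 60.8% ± 3.14 over 21 IVM oocytes and 64.0% ± 1.75 over 15 IVO oocytes (mean ± SD). Here the difference was about the size of the IVM SD and larger than the IVO SD. Over all oocytes, IVO libraries measured fewer long windows, 79.5% on average against 86.3% in IVM libraries. Levels were mostly higher in sparse oocytes, and the part of this unequal coverage in the difference was not tested. With each oocyte's median window in place of its mean, the difference was -6.63 in long and -9.46 in shorter windows. These medians rest on all 46 oocytes, and in 9 of the 10 sparse ones the median long window stood at 100%.

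Window by window, 2626 of the 4232 long windows, 62.1%, had a lower mean in IVM than in IVO oocytes, against 58.0% of shorter windows. The central 90% of differences ran from -18.4 to 12.8 percentage points in long windows and from -24.4 to 18.7 in shorter windows. Windows were counted whose group means differed by at least 10 percentage points, which is a fixed size and not a test. Of all 33030 autosomal windows with at least 5 oocytes of each group, 24.9% were lower in IVM by this size and 14.1% were higher. Among the long windows, 898 or 21.2% were lower and 389 or 9.19% were higher. Both shares lay below those of all windows, and 25.7% and 14.8% of shorter windows passed in the same directions. Within the IVM group, the oocytes numbered 1 to 18 were lower than those numbered 39 to 46 by this size in 19.8% of long windows and higher in 20.7%. In 25437 shorter windows these shares were 24.3% and 26.7%. The SD of the within-group difference over long windows was 12.6 percentage points, against 9.47 for IVM minus IVO, with fewer oocytes behind each mean.

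The spread of the differences over all long windows, 9.47 percentage points, was narrower than the 13.1 of all shorter windows, with no step at the length limit. The SD of the difference over windows was 15.2 percentage points at 5 kb to under 20 kb, 11.4 at 50 kb to under 100 kb, 10.5 at 100 kb to under 140 kb, 10.2 at 140 kb to under 150 kb, 10.8 at 150 kb to under 160 kb and 8.39 at 250 kb to under 300 kb, the smallest of all classes. Beyond that length it was 8.71, 8.42 and, in the 54 windows of 500 kb or more, 9.13. The mean difference was -2.32, -2.83, -2.54, -2.51, -2.89 and -2.73 in the first 6 of these classes and -3.31, -2.71 and -3.16 in the last 3. The share of windows higher in IVM by at least 10 percentage points was 18.2% at 5 kb to under 20 kb, 10.5% at 140 kb to under 150 kb, 11.4% at 150 kb to under 160 kb, 7.19% at 250 kb to under 300 kb and 11.1% at 500 kb or more. The share lower was 26.9%, 21.9%, 24.0%, 19.2% and 24.1%. The mean number of oocytes behind a window was 12.2 IVM and 8.41 IVO, 21.3 and 14.9, 21.8 and 15.2, 23.0 and 16.4, and 24.3 and 17.5 in these 5 classes. Means over fewer oocytes scatter more and pass a fixed size more often, and the part of this in the wider differences and larger shares of shorter windows was not tested.

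By level, the mean difference in long windows was -1.07 at 20% to under 40%, -3.40 at 40% to under 60%, -3.33 at 60% to under 80% and -1.34 at 80% or more. Shorter windows had -2.41, -3.97, -3.22 and -0.996 in the same classes, and 0.513 in the 1417 windows under 20%. Without the sparse oocytes the differences in long windows were -2.31, -4.07, -3.40 and -1.28, with that at 20% to under 40% further from 0, and shorter windows had -2.85, -4.35, -3.29 and -1.08. With and without them, the deficit of IVM oocytes was largest at 40% to under 60% in both kinds of window.

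The sign of the mean difference was negative on each of the 29 autosomes, in long windows and in shorter ones. It was furthest from 0 on chromosome 25, at -5.13 over 28 long windows, and on chromosome 19, at -4.59 over 36. It was nearest to 0 on chromosome 29, at -0.451 over 68 windows, and on chromosome 26, at -0.547 over 68. With IVM libraries 1 to 18 alone it was negative on all 29 and with libraries 39 to 46 alone on 27, the exceptions being chromosome 26 with 0.370 and chromosome 29 with 2.14. The long windows had the larger deficit on 17 of 29 autosomes.

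No long window separated the groups fully, as the ranges of IVM and IVO oocytes overlapped in all 4232. The ranges also overlapped in all but 1 of 27612 shorter windows, so long windows did not stand apart in this. In 39 long windows, 0.922%, the difference was larger than the mean of both SDs over oocytes, and in shorter windows this held for 4.44%. The windows named next have the largest differences among those whose sign was the same with IVM libraries 1 to 18 and with 39 to 46, so their sizes are a description of extremes.

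The largest deficit of IVM oocytes was in chr4:10724856-10951389. Its values ran from 0% through a median of 29.4% to 60.0% over 22 IVM oocytes and from 25.0% through 66.7% to 100% over 16 IVO oocytes. The difference was -40.6 percentage points, -41.2 with libraries 1 to 18 and -39.3 with 39 to 46. No IVM oocyte was at 100% and 6 IVO oocytes were, while values between 25.0% and 60.0% occurred in both groups. The long window after it had a level of 38.9%. This window had a level of 53.0%, from means of 32.7% in IVM and 73.3% in IVO oocytes.

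A second window of chromosome 4, chr4:91141956-91351817, differed by -40.4 percentage points, with 20 IVM and only 9 IVO oocytes. Its values ran from 0% through a median of 18.3% to 100% in the former and from 41.7% through 66.7% to 100% in the latter. Of the 9 IVO oocytes 4 were at 100%, as was 1 IVM oocyte, and the difference was -34.2 and -51.9 by library block.

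The window chr9:78798608-78988394 differed by -39.5, with a median of 44.4% over 18 IVM and of 100% over 13 IVO oocytes, and no IVO value was below 40.0%. By library block the difference was -47.5 and -11.8, larger with the oocytes numbered 1 to 18. In chr27:8959637-9157929 the difference was -38.9, with 4 of 18 IVM oocytes at 0% and no IVO oocyte below 42.9%. In chr15:17295786-17450205 it was -38.1, with 9 of 14 IVO oocytes and 2 of 17 IVM oocytes at 100%.

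Differences in the other direction were smaller at their extreme. In chr29:3587557-3764985 the values ran from 0% through a median of 69.7% to 100% over 20 IVM oocytes and from 0% through 31.0% to 50.0% over 12 IVO oocytes. The difference was 34.7 percentage points, 25.9 with libraries 1 to 18 and 55.3 with 39 to 46. All IVO oocytes were at or below 50.0%, and IVM oocytes lay on both sides of that value. In chr6:36070950-36239423 the difference was 32.7, with medians of 50.0% over 21 IVM and 6.25% over 11 IVO oocytes.

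The window chr20:63345973-63502324 differed by 30.4, with 5 of 23 IVM and none of 15 IVO oocytes at 100%. In chr22:42713424-42976032 the difference was 27.6 and in chr1:47068881-47241418 it was 27.0. Oocytes of both groups read 0% in each of the 5 windows.

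As classes, windows at either side of the length limit were alike in level and spread, while single windows varied. The 3 long windows nearest to it, chr22:52276919-52426920 of 150002 bp, chr15:36216822-36366841 of 150020 bp and chr13:74528441-74678514 of 150074 bp, had levels of 68.7%, 45.7% and 58.9% and differences of -6.63, 4.87 and -29.9 percentage points. The 3 windows just under it, chr13:638446-788387 of 149942 bp, chr2:115386306-115536219 of 149914 bp and chr22:8770581-8920469 of 149889 bp, had levels of 65.1%, 53.0% and 39.8% and differences of -6.82, -9.13 and 0.431. The 524 windows of 140 kb to under 150 kb had a median level of 62.3% and the 429 windows of 150 kb to under 160 kb one of 63.0%. Their median SDs in IVM oocytes were 29.2 and 28.9. Level and spread thus showed no step at the limit.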

How the data were processed

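Libraries of single MII oocytes were made by scBS-seq. The authors trimmed reads with Trim Galore 0.4.4, mapped the trimmed reads by Bismark 0.18.2 against UMD3.1.1, removed duplicates and quantified windows in SeqMonk. The versions are from the submitters' processing notes, which give the build as UMD3.1. The deposited values are percent methylated CpG calls per window and oocyte, without the number of calls, so depth is unknown. Each of the 46 value columns was matched to a library by name.

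Per window, means and SDs were taken over the oocytes with a value, at least 5 per group. Per oocyte, windows weighed equally. Level is the mean of both group means, and all differences are IVM minus IVO. Computations used Python 3.11.15, numpy 2.4.6 and pandas 2.3.3. The means and differences were tested on simulated windows with a fixed number of calls per value and no true variation between oocytes. Spread, stretches and correlations were not tested in this way. Named windows were the 5 longest, the 5 highest and 5 lowest in level with at least 10 oocytes of each group, the 5 largest differences each way that kept their sign in both blocks of IVM libraries with at least 3 oocytes each, the 3 largest and 3 smallest SDs at 20% to under 80%, and 3 on each side of the length limit. The SDs were ranked by the mean of both group SDs. Windows and lists were chosen with earlier results of these data known. No gene annotation of this build was used, so no genes are named. Alternatives changed the oocyte minimum, length limits, weighting, libraries and summary.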

Additional observations from a re-analysis of the deposited data

How the results depend on the processing

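The deficit of IVM oocytes in long windows was negative under all 11 alternatives, from -6.63 to -2.49 percentage points, and that in shorter windows under all 12, from -9.46 to -2.23. Their difference, -0.0315, was negative under 6 of 12 alternatives and lay between -0.267 and 2.83, the highest with the median over an oocyte's windows. That median also gave -9.46 in shorter windows, a level of 75.7% in IVO oocytes, and an excess of long over shorter windows of 5.46 in IVM and 2.63 in IVO oocytes. The excess was 2.67 and 2.63 with at least 10 oocytes of each group, 2.24 and 2.14 with windows weighted by length, and 5.30 and 5.43 beside windows of 5 kb to under 75 kb. With windows of 20% to under 80% only, the level in IVO oocytes was 60.0%. The causes were not tested. A limit of 100 kb gave 7710 long windows and of 200 kb 2393, by construction. A size of 20 percentage points left 154 long windows, 3.64%, lower and 40, 0.945%, higher in IVM. In shorter windows 8.63% were lower and 4.19% higher by 20 percentage points. With IVM libraries 39 to 46 only, 1154 of 4194 long windows were lower and 608 higher by 10 percentage points. The shares of all windows and of shorter windows were not computed for these libraries. Means over their 8 oocytes scatter more, so these counts cannot be set against the 898 and 389 found with all IVM libraries. With oocytes of at least 15000 windows, 935 of 4232 long windows were lower and 332 higher by that size, and 1 was under 20%. With the same oocytes, 23.3% to 27.5% were lower and 9.95% to 17.2% higher across length classes of shorter windows. The share over all windows is not given for these oocytes. These counts and shares were added after seeing the data. The values by class, the correlations and the shares at 0% or 100% without the sparse oocytes were also added after seeing the data. Of 103 recomputed values, 85 moved less than the SD over oocytes or over windows, or for counts and shares stayed within 1.5 times. For the difference in long windows that SD was 4.65, larger than the difference of -2.65 itself, so even -6.63 counted as within it. This tally therefore does not show how stable a result was. No paired analysis was made, because the labels do not name the heifer of each oocyte, which would pair IVM with IVO oocytes. The paper used the cow of origin in its RNA comparison, so that record exists outside the labels. The unknown number of calls per value limits every spread given. Hormone treatment, follicle size, selection by cumulus expansion and the library numbers of IVO oocytes cannot be told apart from the group. IVO libraries also measured fewer windows on average than IVM libraries, and the part of this in the differences was not tested.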
